A study of Mus musculus with 14 samples.

Results

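B cells are the lymphocytes that recognise antigen through a surface immunoglobulin and, once activated, become memory cells or antibody-secreting plasma cells. The 31 genes described here are expressed mainly or partly in B cells and were measured in whole mouse lung. They comprise the antigen receptor (Ighm, Cd79a and Cd79b), signalling proteins behind it (Blk, Btk, Blnk, Plcg2 and Bank1) and receptors that tune it or are carried beside it (Cr2, Cd22, Cd72, Siglecg, Fcer2a, Btla, Fcmr and Fcrla). The others are the membrane proteins Ms4a1 and Cd37, the TNF receptor family members Tnfrsf13c, Tnfrsf13b and Cd40 with the activation marker Cd83, the transcription factors Pax5, Ebf1, Spib, Pou2af1, Pou2f2, Bcl11a and Bach2, and Ralgps2 and Vpreb3. They were chosen by symbol as genes known from B cells, out of 18194 genes with a probe set that the platform annotation assigns to 1 symbol. The probe set with the highest mean over the 14 arrays stood for each gene.

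A naive B cell carries IgM on its surface, held by the CD79A and CD79B chains, which pass the signal to kinases such as BLK and BTK and the adaptor BLNK. CD22, CD72 and SIGLECG dampen this signal, and the complement receptor CR2 strengthens it when antigen is coated with complement. EBF1 and PAX5 establish the B cell programme, and the TNF family ligand BAFF, acting through its receptor encoded by Tnfrsf13c, keeps mature B cells alive. A healthy mouse lung holds B cells mainly within its blood vessels, with organised lymphoid clusters forming after infection or irritation.

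The study compared lungs injured by mechanical ventilation, lungs labelled for pre-B-cell colony-enhancing factor (PBEF, the product of Nampt), and both together. The arrays labelled VILI PBEF+/- (n = 3) came from animals of 8 to 12 weeks ventilated for 4 hours, and those labelled VALI (n = 4) from animals of 18 to 22 weeks ventilated for 4 hours. The arrays labelled PBEF+/- (n = 3) came from animals of 18 to 22 weeks marked as not ventilated, and the Control arrays (n = 4) from animals of 18 to 22 weeks given PBS. Tidal volume was 40 ml/kg per the sample labels and 30 ml/kg per the series text, which also describes rhPBEF by the IT route. The labels do not settle if PBEF+/- is a genotype or a treatment with the protein. The VILI PBEF+/- animals differed from every other group in age, so age cannot be told apart from the combination of ventilation and PBEF+/-. Strain and sex are not given in the labels, and no label makes each array a separate animal. The p-values therefore cover only the spread between arrays, part of which may be technical.

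Expression is given as the deposited log2 value, on which a step of 1 is a doubling. Il6, the cytokine interleukin-6, went against the label in 2 arrays. VALI replicate 4 had a level of 2.78, and the other VALI arrays had 9.60 to 9.85. PBEF+/- replicate 3 had 10.87, and the other PBEF+/- arrays had 2.10 and 2.56. Every comparison is therefore given with 14 arrays as labelled and with 12 arrays, leaving out these 2. Whether their labels were exchanged was not tested, and if they were, the values given as labelled hold arrays of the wrong group. Since their own levels led to this choice, results with 12 arrays are not independent evidence of a response to ventilation.

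RefSeq promoters (GRCm38.p6, 250 bases before to 50 after the start of transcription) matched 25 of the 31 genes, with 30 promoters in all. Motifs of factors known from B cells were searched in them on both strands. The octamer bound by POU2F2 and its coactivator POU2AF1 (ATGCAAAT, or ATTTGCAT on the other strand) was found in 2 of 25 genes, Blnk and Vpreb3, and in 1.74% of all 32851 promoters. A palindrome of the kind EBF1 binds (CCCNNGGG) was found in 3 of 25 genes, Bank1, Cd22 and Spib, and in 13.7% of all promoters. A site of the kind PU.1 and SPIB bind (GAGGAAGT, or ACTTCCTC) was found in 3 of 25 genes, Btla, Cd37 and Cd72, and in 3.2% of all promoters. A match describes letters only and is no evidence of binding. The promoters below were taken because each holds 1 of the 3 motifs, in capitals, and because Spib, Vpreb3 and Btla recur in the comparisons. They lie at chr7:44532022-44532321 on the minus strand for Spib, chr10:75948050-75948349 on the plus strand for Vpreb3, and chr16:45224087-45224386 on the plus strand for Btla. In Spib 2 matches overlap, beginning 65 and 64 bases before the start, while the match begins 45 bases before the start in Vpreb3 and 18 bases before it in Btla.
Spib: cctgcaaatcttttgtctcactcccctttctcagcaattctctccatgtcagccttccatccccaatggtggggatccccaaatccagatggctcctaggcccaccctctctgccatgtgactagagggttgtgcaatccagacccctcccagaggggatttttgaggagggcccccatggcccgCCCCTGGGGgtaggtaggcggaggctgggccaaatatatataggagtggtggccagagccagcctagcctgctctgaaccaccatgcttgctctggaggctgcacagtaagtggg
Vpreb3: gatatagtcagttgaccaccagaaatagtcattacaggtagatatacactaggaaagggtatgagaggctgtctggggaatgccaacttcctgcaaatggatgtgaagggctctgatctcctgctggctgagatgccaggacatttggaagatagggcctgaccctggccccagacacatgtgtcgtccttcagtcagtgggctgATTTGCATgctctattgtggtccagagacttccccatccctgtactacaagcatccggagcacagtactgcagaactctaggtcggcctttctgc
Btla: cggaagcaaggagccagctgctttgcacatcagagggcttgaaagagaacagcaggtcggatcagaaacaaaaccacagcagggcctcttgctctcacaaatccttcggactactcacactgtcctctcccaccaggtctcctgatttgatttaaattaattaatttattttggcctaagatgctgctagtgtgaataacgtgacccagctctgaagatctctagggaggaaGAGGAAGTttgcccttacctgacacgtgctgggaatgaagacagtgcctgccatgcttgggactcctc

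Most of the genes were expressed in every lung. Of the 31 genes, 22 were above the array median in all 14 arrays, and 29 were above it in at least 3 arrays and were tested. The defining markers Ms4a1, Cd79a, Cd79b, Cd22, Ighm and Tnfrsf13c were all above the median in every array. Pax5 was an exception, at 1.84 to 1.92 in all 14 arrays, and Pou2f2, encoding the octamer-binding factor, lay at 2.21 to 2.42. Both were below the median throughout and were not tested. Siglecg, Fcrla and Spib were above it in 12 or 13 arrays, among them arrays of every group. Blk, Cr2, Vpreb3 and Bcl11a were above it in 4, 6, 6 and 8 arrays and in 0 of the 3 VILI PBEF+/- arrays. These 4 genes entered the tests only through arrays in which they were high, so a difference was built into their selection.

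**Figure D1:**
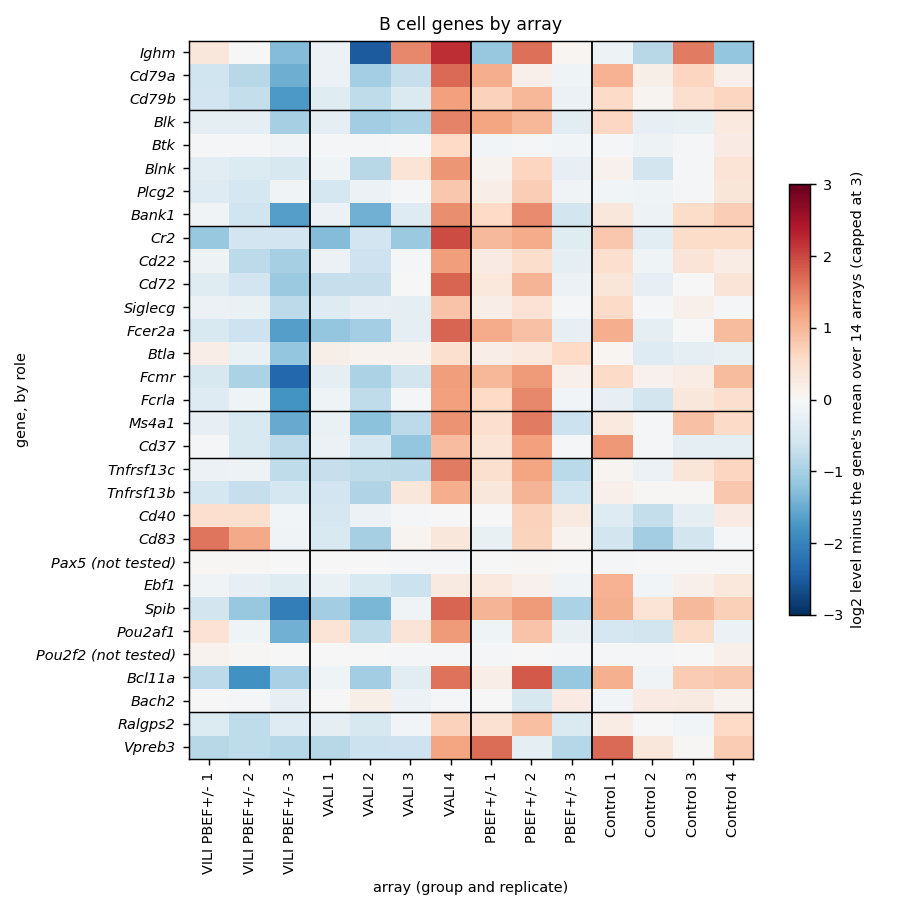
Log2 level of each of the 31 B cell genes minus that gene's mean over the 14 arrays (colour, capped at 3), in rows by role and in columns by array. VALI replicate 4 is the array with the highest level for 16 of the 29 tested genes, and VILI PBEF+/- replicate 3 is the lowest for 13.

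The B cell genes were the lowest on average in VILI PBEF+/- lungs and shared many of their highs and lows across arrays. Their mean deviation from the average of all arrays was -0.21, -0.43 and -0.98 in the VILI PBEF+/- arrays and -0.36, -0.75, -0.23 and 1.15 in the VALI arrays. It was 0.43, 0.83 and -0.25 in the PBEF+/- arrays and 0.40, -0.18, 0.24 and 0.35 in the Control arrays. VALI replicate 4 stood far above the other ventilated lungs. The order of the group means did not hold for each array, as VILI PBEF+/- replicates 1 and 2 lay above VALI replicate 2. PBEF+/- replicate 3 stood below the other PBEF+/- lungs and only slightly below Control replicate 2. VALI replicate 4 exceeded VALI replicates 1 to 3 in 28 of 29 genes, against 47.5% of all genes tested, and exceeded all 4 Control arrays in 24 of 29, against 24.0%. PBEF+/- replicate 3 lay below replicates 1 and 2 in 24 of 29 genes, against 42.9% of all genes tested. It lay below all 4 Control arrays in 15 of 29 genes, also against 42.9%, so it was set apart from Control far less clearly. VILI PBEF+/- replicate 3 was the lowest array for 13 of 29 genes, against 7.93% of all genes tested. In whole lung, fewer B cells and less RNA per B cell cannot be told apart.

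With the arrays as labelled, no B cell gene passed the threshold of adjusted p under 0.05 in any comparison. In VALI minus Control, limma called 0 of 29 members and 0% of all 11360 genes tested. At an unadjusted p under 0.05, 1 of 29 members was lower and 0 were higher, against 11% lower and 7.22% higher among all genes. The members' median log2 difference was -0.27, beside -0.06 over all genes, and 20 of 29 lay below 0, against 58.5%. In VILI PBEF+/- minus PBEF+/-, limma called 0 of 29 members and 0% of all genes. There 8 of 29 members were lower at an unadjusted p under 0.05, against 11.4% of all genes, and 0 were higher, against 9.35%. The median was -0.83, beside -0.05 over all genes, and 28 of 29 members lay below 0, against 55.5%. In 12 of 29 members the VILI PBEF+/- arrays all lay below the PBEF+/- arrays, against 10.8% of all genes. Among these 12 was Cr2, which entered the tests only through arrays in which it was high.

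Leaving out the 2 arrays gave called B cell genes in both comparisons of ventilated with unventilated lungs, and none was called higher. In VALI minus Control with 12 arrays, limma called 8 of 29 members lower and 0 higher, against 10.5% of all genes lower and 6.53% higher. In VILI PBEF+/- minus PBEF+/- with 12 arrays, 17 of 29 members were called lower and 0 higher, against 15.3% of all genes lower and 11.2% higher. The median difference was -0.64 in the first and -1.24 in the second, beside -0.08 and -0.07 over all genes. Leaving aside Blk, Cr2, Vpreb3 and Bcl11a, 7 of 25 and 14 of 25 members were called lower. VALI lay wholly below Control in 13 of 29 members, against 23.1% of all genes, and VILI PBEF+/- below PBEF+/- in 23 of 29, against 30.1%. Both of these counts include Blk, Cr2, Vpreb3 and Bcl11a, so part of their excess over all genes was built into the selection. These comparisons share no array, but they come from 1 model with 1 shared estimate of the spread. Each also lost 1 array by its Il6 level, so they are not independent of each other. In both, 7 genes were called, which is 7 of the 8 called in VALI minus Control and 7 of the 17 called in VILI PBEF+/- minus PBEF+/-. The 7 include Cr2. Of all genes tested, 778 were called lower in both, out of 1191 called lower in VALI minus Control and 1736 in VILI PBEF+/- minus PBEF+/-. The first count rested on single arrays, as it was 1 without VALI replicate 2, 2 without VALI replicate 1 and 4 without VALI replicate 3, Control replicate 1 or Control replicate 4. The second was 8 without PBEF+/- replicate 2, which leaves 1 PBEF+/- array assumed to vary like the other groups. It was also 8 when only the groups compared entered the model, and it was 1 with array quality weights, which gave 17 for VALI minus Control.

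**Figure D2:**
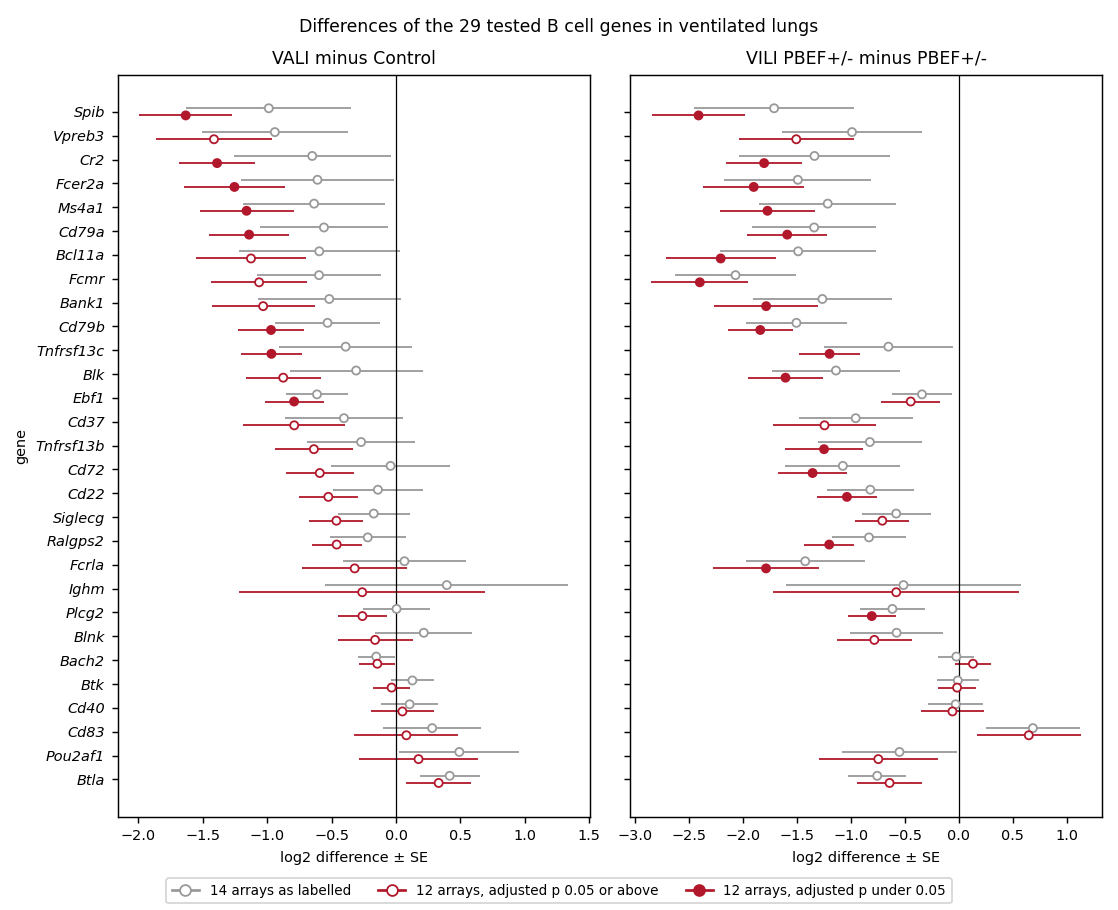
Log2 difference ± standard error of each of the 29 tested B cell genes in VALI minus Control (left) and VILI PBEF+/- minus PBEF+/- (right), with 14 arrays as labelled (grey) and 12 arrays (red, filled where the adjusted p is under 0.05). With 12 arrays, 8 genes are filled on the left and 17 on the right, all of them below 0.

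Among the antigen receptor genes, both signalling chains fell with 12 arrays and the immunoglobulin heavy chain did not pass the test. Cd79b (probe set 1417640_at), whose product couples IgM to its kinases, read 8.44, 8.32 and 7.30 in VILI PBEF+/- and 8.67, 8.27, 8.59 and 10.26 in VALI. It read 9.71, 10.02 and 8.86 in PBEF+/- and 9.60, 9.11, 9.54 and 9.67 in Control. The VILI PBEF+/- arrays all lay below the PBEF+/- arrays, and 3 of the 4 VALI arrays lay below all Control arrays. With 14 arrays, Cd79b differed by -1.50 ± 0.47 in VILI PBEF+/- minus PBEF+/- (limma adjusted p = 0.154). With 12 arrays it fell by 1.84 ± 0.30 in VILI PBEF+/- against PBEF+/- (adjusted p = 0.00189) and by 0.97 ± 0.25 in VALI against Control (adjusted p = 0.0236).

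Cd79a, the partner chain, read 8.11, 7.88 and 7.25 in VILI PBEF+/- and 8.54, 7.69, 8.04 and 10.41 in VALI. It read 9.80, 8.87 and 8.59 in PBEF+/- and 9.76, 8.91, 9.38 and 8.87 in Control. As for Cd79b, VALI replicate 4 was the highest of all arrays and no VILI PBEF+/- array reached a PBEF+/- or Control array. With 12 arrays, Cd79a fell by 1.59 ± 0.37 in VILI PBEF+/- against PBEF+/- (limma adjusted p = 0.0104) and by 1.14 ± 0.31 in VALI against Control (adjusted p = 0.0278).

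Ighm, the heavy chain of IgM, is made by B cells and in far larger amounts by IgM plasma cells. It read 11.97, 11.63 and 10.31 in VILI PBEF+/- and 11.44, 9.11, 13.06 and 13.83 in VALI. It read 10.49, 13.27 and 11.68 in PBEF+/- and 11.46, 10.78, 13.17 and 10.47 in Control. Its range of 4.72 over the 14 arrays was the widest of the 31 genes, and every group overlapped every other. Ighm did not pass the test in any comparison, with a log2 difference of 0.39 ± 0.94 in VALI minus Control with 14 arrays (limma adjusted p = 0.846). Jchain, which joins IgM into polymers and marks antibody-secreting cells, read 11.30, 11.26 and 10.71 in VILI PBEF+/- and 10.20, 10.55, 12.77 and 13.17 in VALI. It read 9.81, 13.23 and 11.29 in PBEF+/- and 10.52, 9.85, 12.35 and 10.35 in Control. VALI replicates 3 and 4, PBEF+/- replicate 2 and Control replicate 3 were the 4 highest arrays for both Ighm and Jchain.

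Other probe sets for Ighm gave a different picture of the arrays. Probe set 1425247_a_at read 8.55 in VALI replicate 3, 7.88 in VALI replicate 4 and 7.64 in PBEF+/- replicate 3, and 2.84 to 3.08 in the other 11 arrays. Probe set 1425324_x_at read 6.98, 6.33 and 5.48 in those 3 arrays and 2.50 to 2.94 in the others. Both probe sets were thus high in the same 3 arrays, 2 of which are the arrays that went against their labels. The suffixes _a_at and _x_at mark probe sets that can bind several transcripts, and immunoglobulin segments are shared between transcripts, so which transcript they read is uncertain. The probe set used for Ighm above, 1427329_a_at, carries the suffix _a_at as well, so the same limit holds for its values.

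**Figure D3:**
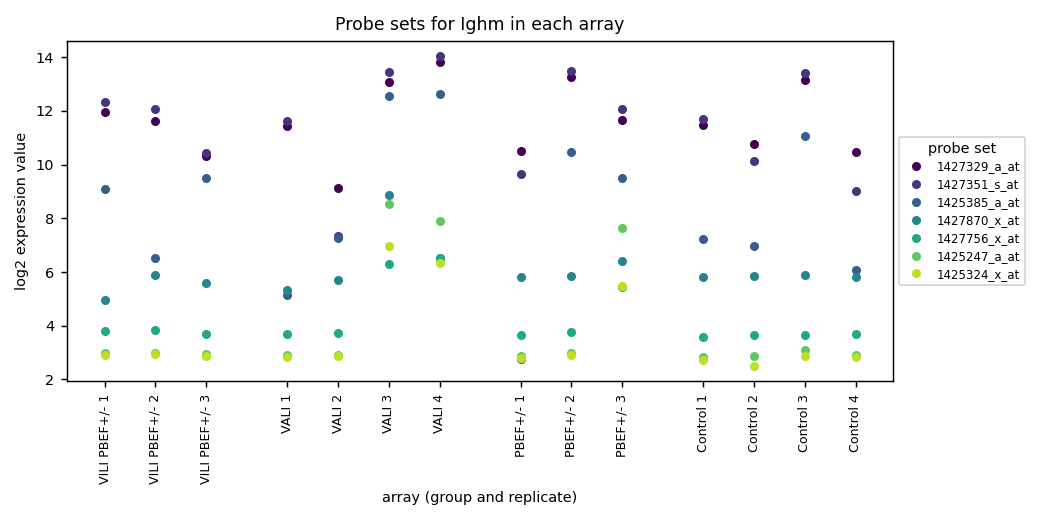
Log2 level (vertical axis) of the 7 probe sets for Ighm with a mean above 3.5, in each array (horizontal axis). The 2 brightest vary widely within every group, while 1425247_a_at exceeds 7 in only VALI replicates 3 and 4 and PBEF+/- replicate 3.

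Of the genes for signalling behind the receptor, 3 of 5 fell with 12 arrays in VILI PBEF+/- against PBEF+/-, against 15.3% of all genes, and 0 of 5 in VALI minus Control, against 10.5%. The 3 include Blk, which entered the tests only through arrays in which it was high. Blk, a Src family kinase of B cells, differed by -1.61 ± 0.35 in VILI PBEF+/- minus PBEF+/- (limma adjusted p = 0.00737). It read 3.94, 3.95 and 3.20 in VILI PBEF+/- and 5.39, 5.21 and 3.90 in PBEF+/-, and all VILI PBEF+/- values lay below the array median, so the size of its fall is uncertain. Bank1, a scaffold protein, fell by 1.78 ± 0.48 (adjusted p = 0.0194) and Plcg2, the phospholipase that raises calcium, fell by 0.81 ± 0.22 (adjusted p = 0.0226) in VILI PBEF+/- against PBEF+/-. Plcg2 is also expressed in other leukocytes. Btk, the kinase that activates PLCG2, spanned only 0.76 over all arrays and differed by -0.02 ± 0.17 there. The adaptor gene Blnk differed by -0.78 ± 0.35 (adjusted p = 0.115).

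Among the co-receptors and inhibitory receptors, 6 of 8 fell in VILI PBEF+/- against PBEF+/-, against 15.3% of all genes, and 2 of 8 in VALI against Control, against 10.5%, both with 12 arrays. Both counts include Cr2, which entered the tests only through arrays in which it was high. Cr2, the complement receptor of mature and marginal zone B cells, read 3.40, 3.95 and 3.96 in VILI PBEF+/- and 3.24, 3.97, 3.41 and 6.49 in VALI. It read 5.51, 5.63 and 4.17 in PBEF+/- and 5.35, 4.19, 5.09 and 5.09 in Control. Every VILI PBEF+/- array and VALI replicates 1 to 3 lay below all arrays of PBEF+/- and Control, while VALI replicate 4 was the highest of all. With 12 arrays, Cr2 fell by 1.80 ± 0.35 in VILI PBEF+/- against PBEF+/- (limma adjusted p = 0.00421) and by 1.39 ± 0.29 in VALI against Control (adjusted p = 0.0093). Cr2 was above the array median in 0 of 3 VILI PBEF+/- arrays and 1 of 4 VALI arrays, so the sizes of these falls rest on low values below the array median and are uncertain.

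Fcer2a, the low-affinity IgE receptor CD23 of follicular B cells, read 6.40, 6.24 and 5.20 in VILI PBEF+/- and 5.70, 5.83, 6.58 and 8.61 in VALI. It read 7.96, 7.73 and 6.62 in PBEF+/- and 7.95, 6.57, 6.84 and 7.81 in Control. The VILI PBEF+/- arrays lay below all PBEF+/- and Control arrays, whereas VALI replicate 3 exceeded Control replicate 2 by less than the spread within either group. With 12 arrays, Fcer2a fell by 1.90 ± 0.47 in VILI PBEF+/- against PBEF+/- (limma adjusted p = 0.0131). Its fall of 1.25 ± 0.39 in VALI against Control (adjusted p = 0.048) held in 7 of 21 alternatives, with adjusted p-values from 0.012 to 0.164.

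Fcmr, the receptor for the Fc part of IgM, had the smallest p of all members in VILI PBEF+/- minus PBEF+/- as labelled. It read 7.52, 7.05 and 5.66 in VILI PBEF+/- and 7.72, 7.04, 7.46 and 9.27 in VALI. It read 9.01, 9.28 and 8.15 in PBEF+/- and 8.58, 8.13, 8.22 and 8.95 in Control. All VILI PBEF+/- arrays lay below all PBEF+/- and Control arrays. The difference from PBEF+/- was -2.07 ± 0.56 with 14 arrays (limma adjusted p = 0.129) and -2.40 ± 0.45 with 12 arrays (adjusted p = 0.00359).

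Cd22, a sialic acid-binding inhibitor of the antigen receptor, read 7.84, 7.20 and 6.99 in VILI PBEF+/- and 7.82, 7.36, 7.95 and 9.25 in VALI. It read 8.24, 8.52 and 7.73 in PBEF+/- and 8.50, 7.86, 8.38 and 8.20 in Control. VILI PBEF+/- and PBEF+/- overlapped with 14 arrays and were separate with 12. With 12 arrays Cd22 fell by 1.04 ± 0.27 in VILI PBEF+/- against PBEF+/- (limma adjusted p = 0.0184), and its difference of -0.53 ± 0.23 in VALI minus Control did not pass (adjusted p = 0.138). Cd72, another inhibitory receptor, and Fcrla, an intracellular immunoglobulin-binding protein of B cells, fell by 1.35 ± 0.32 and 1.79 ± 0.49 in VILI PBEF+/- against PBEF+/- (adjusted p = 0.0105 and 0.0214). Another Fcrla probe set, 1425802_a_at, differed by only -0.56 there. Siglecg, an inhibitor prominent on B-1 cells, differed by -0.71 ± 0.25 (adjusted p = 0.0573).

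Btla, an inhibitory receptor shared by B and T cells, moved unlike the other receptors in this group. It read 9.10, 8.71 and 7.75 in VILI PBEF+/- and 9.10, 9.03, 9.01 and 9.39 in VALI. It read 9.11, 9.22 and 9.51 in PBEF+/- and 8.98, 8.53, 8.65 and 8.70 in Control. All VALI and PBEF+/- arrays lay above all Control arrays, and all VILI PBEF+/- arrays lay below the PBEF+/- arrays, the nearest at 9.10 against 9.11. With 14 arrays, Btla differed by 0.42 ± 0.23 in VALI minus Control (limma adjusted p = 0.353) and by -0.76 ± 0.27 in VILI PBEF+/- minus PBEF+/- (adjusted p = 0.179). The interaction (VILI PBEF+/- minus PBEF+/-, less VALI minus Control) was -1.17 ± 0.36, with an adjusted p of 0.823 and an unadjusted p of 0.00602. Among the members, 1 of 29 had a negative interaction at an unadjusted p under 0.05, against 2.71% of all genes, and 0 had a positive one, against 2.87%. With 14 arrays, limma called 0 of 29 members and 0% of all genes for the interaction.

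**Figure D4:**
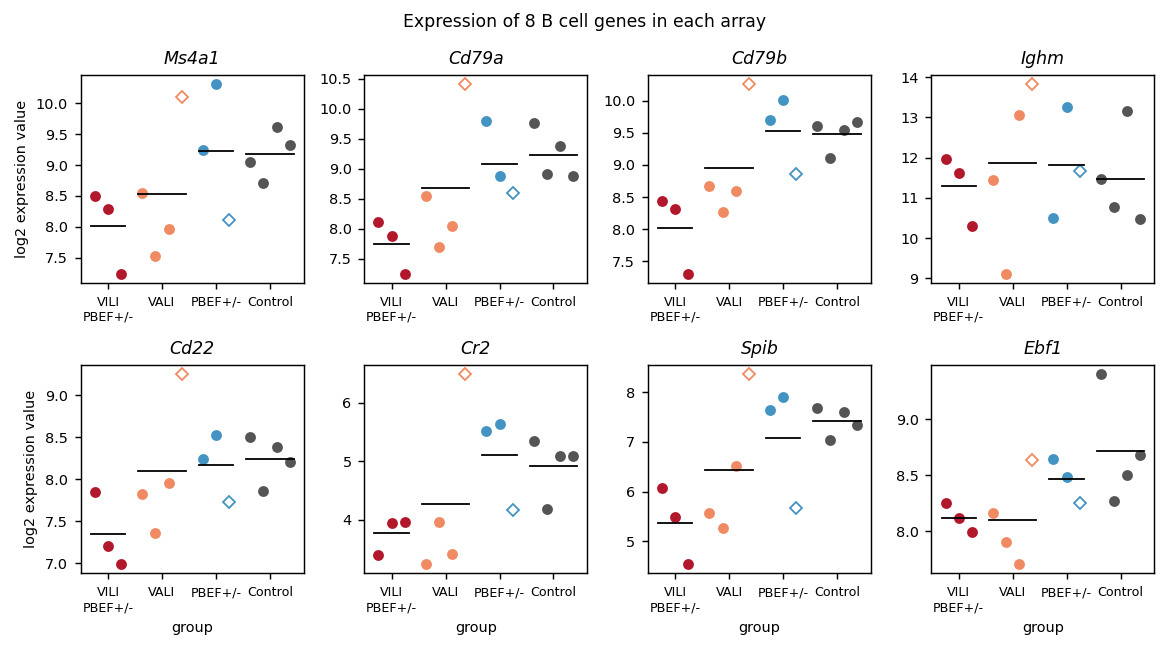
Log2 expression of 8 B cell genes in each array (points) by group, with the mean of each group (line). Open diamonds are VALI replicate 4 and PBEF+/- replicate 3, and VALI replicate 4 is the highest VALI array for all 8 genes.

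Ms4a1, which encodes the B cell surface protein CD20, read 8.50, 8.29 and 7.24 in VILI PBEF+/- and 8.55, 7.53, 7.97 and 10.11 in VALI. It read 9.25, 10.31 and 8.11 in PBEF+/- and 9.05, 8.71, 9.62 and 9.32 in Control. VALI replicates 1 to 3 and all VILI PBEF+/- arrays lay below the Control arrays. With 12 arrays, Ms4a1 fell by 1.77 ± 0.44 in VILI PBEF+/- against PBEF+/- (limma adjusted p = 0.0131). Its fall of 1.16 ± 0.36 in VALI against Control (adjusted p = 0.0498) lay at the threshold and held in 9 of 21 alternatives, with adjusted p-values from 0.00496 to 0.185. The other bright probe set for Ms4a1, 1423226_at, differed by -2.36 and -1.66 in these comparisons with 12 arrays. Cd37, a tetraspanin of B cells and other leukocytes, differed by -1.24 ± 0.47 in VILI PBEF+/- minus PBEF+/- with 12 arrays (adjusted p = 0.0732). Its other probe set, 1419206_at, differed by -0.49 there.

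The receptors for BAFF fell in VILI PBEF+/- against PBEF+/- with 12 arrays, while Cd40 and Cd83 did not pass the test in any comparison with either set of arrays. Tnfrsf13c, the BAFF receptor of mature B cells, read 6.57, 6.59 and 5.98 in VILI PBEF+/- and 6.05, 5.99, 5.97 and 8.31 in VALI. It read 7.22, 7.93 and 5.94 in PBEF+/- and 6.83, 6.57, 7.10 and 7.38 in Control. VALI replicates 1 to 3 lay close together and below every Control array, and replicate 4 lay above every Control array. With 12 arrays, Tnfrsf13c fell by 1.20 ± 0.28 in VILI PBEF+/- against PBEF+/- (limma adjusted p = 0.0109) and by 0.97 ± 0.24 in VALI against Control (adjusted p = 0.0175). Tnfrsf13b, encoding the receptor TACI for BAFF and APRIL, fell by 1.25 ± 0.36 in VILI PBEF+/- against PBEF+/- (adjusted p = 0.0261). The BAFF gene itself, Tnfsf13b, differed by -0.37 ± 0.16 there (adjusted p = 0.101) and by -0.17 ± 0.13 in VALI minus Control (adjusted p = 0.406), both with 12 arrays.

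Cd83, which stabilises class II molecules on activated B cells and dendritic cells, had its highest values in VILI PBEF+/-. It read 10.40, 9.93 and 8.69 in VILI PBEF+/- and 8.34, 7.79, 8.87 and 9.13 in VALI. It read 8.57, 9.47 and 8.91 in PBEF+/- and 8.24, 7.76, 8.25 and 8.77 in Control. VILI PBEF+/- replicates 1 and 2 exceeded all arrays of the other groups, and replicate 3 lay among them. Cd83 differed by 1.14 ± 0.41 in VILI PBEF+/- minus VALI with 14 arrays (limma adjusted p = 0.433) and by 1.34 ± 0.43 with 12 arrays (adjusted p = 0.471). With array quality weights and 14 arrays it was 2.08 (adjusted p = 0.000734). Cd83 was called there in 1 of 23 alternatives with 14 arrays and 1 of 21 with 12, and so was Cd40, with lowest adjusted p-values of 0.00967 and 0.0119. Cd40, the receptor for T cell help, which dendritic and other cells also carry, averaged 8.65 ± 0.34 in PBEF+/- (SD, n = 3) and 8.04 ± 0.40 in Control (SD, n = 4). Its difference of 0.61 ± 0.24 had the smallest p among members in PBEF+/- minus Control and did not pass (adjusted p = 0.593).

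Of the 5 transcription factors tested, Spib and Ebf1 fell in VALI against Control with 12 arrays. Also with 12 arrays, Spib and Bcl11a were called lower in VILI PBEF+/- against PBEF+/-. Bcl11a entered the tests only through arrays in which it was high. Spib, an Ets factor of B cells and plasmacytoid dendritic cells, read 6.07, 5.49 and 4.55 in VILI PBEF+/- and 5.57, 5.26, 6.52 and 8.36 in VALI. It read 7.65, 7.91 and 5.68 in PBEF+/- and 7.68, 7.04, 7.60 and 7.34 in Control. The ventilated arrays other than VALI replicate 4 all lay below every Control array, as did PBEF+/- replicate 3. Spib fell by 2.41 ± 0.43 in VILI PBEF+/- against PBEF+/- (limma adjusted p = 0.00293) and by 1.63 ± 0.36 in VALI against Control (adjusted p = 0.0118).

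Ebf1, which commits lymphoid progenitors to the B lineage and is also active in stromal and fat cell precursors, read 8.25, 8.12 and 7.99 in VILI PBEF+/- and 8.16, 7.90, 7.71 and 8.64 in VALI. It read 8.65, 8.48 and 8.25 in PBEF+/- and 9.40, 8.27, 8.50 and 8.68 in Control. Its spread was narrower than that of Spib, and VALI replicate 4 lay within the Control range. Ebf1 had the smallest p among members in VALI minus Control as labelled, at -0.61 ± 0.24 (limma adjusted p = 0.216). With 12 arrays it fell by 0.79 ± 0.23 (adjusted p = 0.0353), and its 3 other bright probe sets differed by -0.59, -0.78 and -0.71. Over all members, 15 other probe sets of 7 genes lay above the array median in at least 3 arrays. With 12 arrays, 10 of these 15 had the sign of the probe set used in VALI minus Control, and 8 in VILI PBEF+/- minus PBEF+/-. Those of the other sign belonged to Ighm or Cd40.

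Bcl11a, a zinc finger repressor needed for early lymphoid cells, read 4.16, 3.14 and 3.98 in VILI PBEF+/- and 5.14, 6.79 and 3.81 in PBEF+/-. All its VILI PBEF+/- values lay below the array median. A difference was therefore built into its selection, and the size of its fall is uncertain. It differed by -2.21 ± 0.51 in VILI PBEF+/- minus PBEF+/- with 12 arrays (limma adjusted p = 0.0101). Pou2af1, the octamer coactivator, which plasma cells also express, differed by -0.75 ± 0.55 there and by 0.17 ± 0.46 in VALI minus Control (adjusted p = 0.331 and 0.828). Bach2, a repressor that holds back plasma cell formation and is also active in T cells, spanned only 0.73 over all arrays and did not pass in either of these comparisons. Of the remaining members, Ralgps2, a Ral exchange factor, fell by 1.20 ± 0.23 in VILI PBEF+/- against PBEF+/- (adjusted p = 0.00416). Vpreb3, a chaperone-like relative of the surrogate light chain, differed by -1.41 ± 0.45 in VALI minus Control (adjusted p = 0.0508) and by -1.51 ± 0.53 in VILI PBEF+/- minus PBEF+/- (adjusted p = 0.0575).

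Comparing the groups labelled PBEF+/- with those not so labelled gave no called B cell gene. In PBEF+/- minus Control, limma called 0 of 29 members and 0% of all genes with both 14 and 12 arrays. With 14 arrays, Cd40 and Btla were higher at an unadjusted p under 0.05, 2 of 29 members against 1.93% of all genes, and 0 were lower, against 6.33%. With 12 arrays, 4 were higher and 1 lower, against 2.9% and 8.17% of all genes. The members' median difference was 0.12 with 14 arrays and 0.46 with 12, beside -0.09 and -0.06 over all genes. In VILI PBEF+/- minus VALI, limma called 0 of 29 members, against 0% of all genes with 14 arrays and 0.114% with 12. The median difference there was -0.56 with 14 arrays and -0.11 with 12, and with array quality weights it was above 0, at 0.04 and 0.17. At an unadjusted p under 0.05, 2 of 29 members were lower and 1 higher with 14 arrays, against 7.09% and 3.4% of all genes. With 12 arrays these were 0 and 1, against 4.42% and 3.13%. In the interaction with 12 arrays, limma also called 0 of 29 members and 0% of all genes, while 5 of 29 had a negative value at an unadjusted p under 0.05, against 4.63% of all genes, and 0 a positive one, against 5.72%. The smallest of these p-values belonged to Btla (-0.97 ± 0.39, adjusted p = 0.453).

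Other genes of the B lineage were called in both directions, in VALI minus Control at shares near those of all genes. Of 22 tested genes with a broader or weaker tie to B cells, 2 were called lower and 2 higher there with 12 arrays. Of all genes, 10.5% were called lower and 6.53% higher. In VILI PBEF+/- minus PBEF+/- with 12 arrays, 5 were lower and 1 higher, against 15.3% and 11.2% of all genes. The same shares of all genes stand beside the plasma cell and ligand counts that follow. In VALI against Control, Cd55, a complement regulator, fell by 0.80 ± 0.14 (limma adjusted p = 0.00352), and Swap70, a B cell signalling protein, fell by 0.43 ± 0.09 (adjusted p = 0.00977). Fcgr2b, the inhibitory IgG receptor, which macrophages and endothelium also express, rose by 0.85 ± 0.15 (adjusted p = 0.00384). Of 10 plasma cell genes, 0 were called lower in either comparison, and 1 and 2 were called higher. Ell2, an elongation factor that plasma cells use to make secreted immunoglobulin, rose by 0.66 ± 0.12 in VALI against Control (adjusted p = 0.00452). Of 6 ligands and chemokines that B cells respond to, 1 was called lower and 1 higher in VALI minus Control, and 1 lower and 2 higher in VILI PBEF+/- minus PBEF+/-. One of the genes called higher in both was Il6, whose levels led to the choice of arrays, so its rise is no finding. Cxcl12, a chemoattractant for B cells and many others, fell by 0.91 ± 0.26 in VALI against Control (adjusted p = 0.0322). Cxcl13, which draws B cells into follicles, differed by 0.51 ± 0.70 (adjusted p = 0.66).

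**Figure D5:**
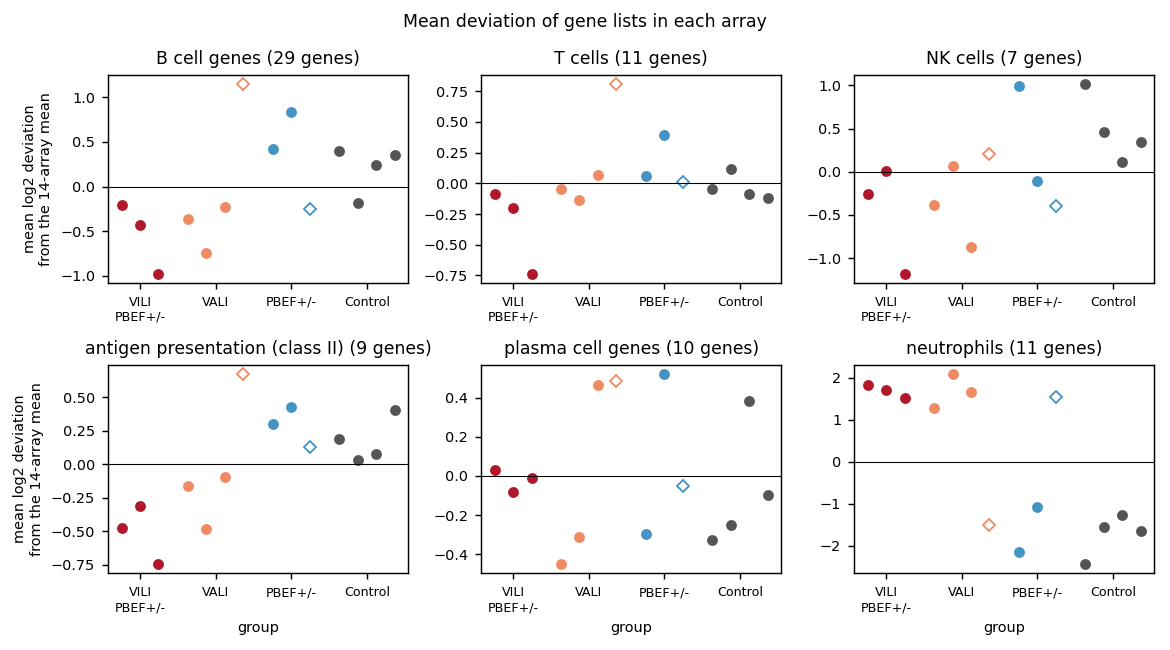
Mean log2 deviation of 6 gene lists from their average over the 14 arrays (vertical axis) in each array (points) by group, with VALI replicate 4 and PBEF+/- replicate 3 as open diamonds. In both of these arrays the neutrophil list lies with the other condition, at -1.50 and 1.53.

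Markers of some other cells differed between the same groups. With 12 arrays, 10.5% of all genes were called lower and 6.53% higher in VALI minus Control. In VILI PBEF+/- minus PBEF+/-, these shares were 15.3% and 11.2%. All counts below are with 12 arrays unless stated, and those near these shares are no finding about a cell type. Neutrophil markers moved the opposite way, with 10 of 11 genes called higher in VALI minus Control and 9 of 11 in VILI PBEF+/- minus PBEF+/- with 12 arrays. With 14 arrays, 0 of 11 were called in either, as were 0% of all genes. The neutrophil mean deviation was 1.52 to 1.83 in VILI PBEF+/-, 1.28 to 2.08 in the VALI arrays other than replicate 4, -2.16 and -1.07 in the PBEF+/- arrays other than replicate 3, and -2.43 to -1.26 in Control. It was -1.50 in VALI replicate 4 and 1.53 in PBEF+/- replicate 3, so the counts with 12 arrays depend on leaving out these 2 arrays. Genes of class II antigen presentation, shared by B cells, dendritic cells and macrophages, were called lower in 1 of 9 in VALI minus Control and 7 of 9 in VILI PBEF+/- minus PBEF+/-. The mean deviation of the class II genes was -0.74 to -0.31 in VILI PBEF+/-, -0.48 to 0.67 in VALI, 0.13 to 0.43 in PBEF+/- and 0.03 to 0.41 in Control, so VILI PBEF+/- lay below both unventilated groups. T cell markers were called in 0 of 11 and lower in 4 of 11, and natural killer cell markers lower in 1 of 7 and 0 of 7. Genes of all leukocytes were called higher in 1 of 8 and lower in 3 of 8, and endothelial markers lower in 3 of 8 and 2 of 8. Macrophage and monocyte markers were called higher in 2 of 11, and lower in 2 and higher in 1 of 11. Of 4 plasmacytoid dendritic cell markers tested, 0 were called in either, with a mean deviation of -0.56 to -0.31 in VILI PBEF+/-, -0.48 to 0.95 in VALI, -0.43 to 0.26 in PBEF+/- and -0.02 to 0.23 in Control. Of 8 thymus genes 2 were tested, Cd1d1 and Cd8b1, and 0 were called. Their mean deviation was -0.70 to -0.04 in VILI PBEF+/-, -0.44 to 0.89 in VALI, -0.18 to 0.75 in PBEF+/- and -0.15 to 0.27 in Control. Dntt, Rag1 and Ptcra of this list were not tested, and Cd8b1 is also in the T cell list. The level of these 2 genes therefore cannot tell thymus from T cells. VALI replicate 4 was the highest array in the plasmacytoid dendritic cell and thymus lists. It was also the highest in the T cell, class II and all-leukocyte lists, at 0.81, 0.67 and 0.48. Of 9 genes of lymph node and lymphoid stroma, 3 were tested. VALI replicate 4 was the highest array there too, at 0.62, with Control replicate 3 at 0.54. VALI replicate 4 was not the highest in the natural killer cell, neutrophil, macrophage, red blood cell, alveolar type II or endothelial lists. Of 7 alveolar type II markers, 0 were called in either. VILI PBEF+/- replicate 3, the array lowest in B cell genes, was also lowest in T cell and natural killer cell markers, at -0.74 and -1.18. It was the lowest in the class II, plasmacytoid dendritic cell and thymus lists as well, at -0.74, -0.56 and -0.70. The T cell list spanned -0.74 to -0.09 in VILI PBEF+/-, -0.14 to 0.81 in VALI, 0.01 to 0.40 in PBEF+/- and -0.12 to 0.12 in Control. The natural killer cell receptor gene Ncr1 lay at 2.56 to 2.70 in all 14 arrays. The part of these cell types, of the low array and of RNA amount in the B cell results was not tested.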

How the data were processed

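Total RNA of whole lung, extracted with Trizol and labelled as biotin cRNA from 6 µg per the labels' protocols, was measured on 14 Affymetrix mouse arrays. The deposited values are log2 expression values per probe set (45101). MAS5 and GCRMA appear in the submitters' processing notes, with no version or role. Array medians were 4.60 to 4.75, no value was missing, and values were used without further scaling. The number of arrays limits the precision.

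Probe sets were named by the platform annotation, and 34958 carried 1 symbol. All 31 members matched RefSeq by Entrez identifier, and 0 symbols changed. Genes whose brightest probe set lay above the median of its array in 3 or more of 14 arrays were tested (11360 of 18194). A linear model of the 4 groups was fitted in limma 3.58.1 (R 4.3.3) with a variance trend, with Benjamini-Hochberg adjustment over the 11360 genes. The model was run on simulated independent values for VALI minus Control with 14 arrays only. The fits with 12 arrays were not simulated. Errors after ± are standard errors of differences, or SD where stated. Per-array values are given for defining markers, for the 3 members with the smallest p in a comparison or for members called with 12 arrays, and other lists are described by counts and their genes of smallest p. Jchain, Cxcl13, Ncr1, Cd1d1 and Cd8b1 fall outside that rule and were chosen after their values were seen.

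The members and lists were chosen with earlier results of these data known. Replicate numbers did not pair arrays: deviations of same-numbered arrays correlated at -0.35 to 0.32. No 2 arrays were identical. Alternatives were other filters, normalizations, probe set rules, variance settings, array weights, a replicate block and each array left out. Figures used matplotlib 3.10.9.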

Additional observations from a re-analysis of the deposited data

Results flagged for a closer look

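Of 58 sets of 4 arrays examined (29 genes in VALI and in Control), 6 held an array whose gap to its nearest neighbour exceeded Dixon's critical value for 4 values as a share of the range. Chance alone marks about 1 set in 20. In VALI, replicate 4 was the array set apart for 4 genes. Tnfrsf13c read 8.31 there, with the nearest VALI array at 6.05 (ratio 0.967). Vpreb3 read 6.02, with the nearest at 4.22 (ratio 0.892), and Btk read 6.06, with the nearest at 5.47 (ratio 0.892). Siglecg read 5.94, with the nearest at 4.84 (ratio 0.889). In Control, Plcg2 read 8.29 in replicate 4, with the nearest Control array at 7.86 (ratio 0.866), and Cd37 read 8.32 in replicate 1, with the nearest at 6.98 (ratio 0.834).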

How the results depend on the processing

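With 14 arrays, array quality weights called 9 members (4689 genes) in VALI minus Control, 7 (3363) in VILI PBEF+/- minus PBEF+/-, 2 (1711) in VILI PBEF+/- minus VALI, and 20 genes in the interaction. Fitting only the groups compared called 27 genes in VALI minus Control and 1 in VILI PBEF+/- minus VALI, and the mean of all probe sets called 2 in VALI minus Control and 1 in VILI PBEF+/- minus PBEF+/-. Without the 2 arrays, 8 members (1933 genes), 17 (3003) and 0 (13) were called in VALI minus Control, VILI PBEF+/- minus PBEF+/- and VILI PBEF+/- minus VALI. Leaving out 1 array gave 0 to 680 genes in VALI minus Control, highest without VALI replicate 4. It gave 0 to 2157 genes and 0 to 5 members in VILI PBEF+/- minus PBEF+/-, highest without PBEF+/- replicate 3, and 0 to 9 genes in VILI PBEF+/- minus VALI.

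With 12 arrays, array weights called 17 members (5037 genes) in VALI minus Control, 1 (1554) in VILI PBEF+/- minus PBEF+/-, 3 (1851) in VILI PBEF+/- minus VALI and 1 gene in the interaction. In VALI minus Control, members called were 4 with no filter and 4 with the replicate block. In PBEF+/- minus Control, 1 gene was called with no filter, with only the groups compared and with the mean of probe sets. Fitting only the groups compared called 8 members (1226 genes) in VILI PBEF+/- minus PBEF+/- and 2 genes in VILI PBEF+/- minus VALI. The last comparison had 0 genes with no filter or the replicate block, 7 with the stricter filter or no variance trend, 8 with quantile normalization and 6 with the mean of probe sets. Leaving out 1 array gave 985 to 2524 genes and 1 to 10 members in VALI minus Control, 1820 to 3710 genes and 8 to 20 members in VILI PBEF+/- minus PBEF+/-, and 0 to 107 genes in VILI PBEF+/- minus VALI. Without PBEF+/- replicate 1, which leaves 1 PBEF+/- array assumed to vary like the other groups, PBEF+/- minus Control had its highest values (0 to 1892 genes, 0 to 1 members), as had the interaction (0 to 1242 genes). No direction reversed in the genes recomputed under these settings. The members' median changed sign in VILI PBEF+/- minus VALI with array weights (0.04 with 14 arrays, 0.17 with 12) and in PBEF+/- minus Control with 14 arrays (-0.07 without Control replicate 2 or PBEF+/- replicate 2). The causes were not tested. The 2 to 4 arrays per group, the removal of 2 arrays by their own values, and the age of the VILI PBEF+/- animals limit what these counts can show.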
